A study of Mus musculus with 16 samples.

Results

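This account covers 9 mouse genes of cholesterol sensing, control of uptake, transport and export, with no lipoprotein receptor among them. They include the sterol-responsive transcription factor genes Srebf1 and Srebf2, their escort Scap and the retention genes Insig1 and Insig2. The others are the sterol carrier Stard4, the ubiquitin ligase Mylip and the exporters Abca1 and Abcg1. The 9 genes were chosen by name, with earlier results of these data known. All 9 were found by symbol among the Ensembl IDs of a table of 54532 genes, and all 9 were above the minimum level for testing. RNA was sequenced from epididymal white adipose tissue, a visceral fat depot next to the epididymis, taken from male C57BL/6 mice that had been fed a high-fat diet for 20 weeks. The 16 libraries form 4 groups of 4 in 2 cohorts. In the first cohort, labelled 25 weeks of age, mice received vehicle or tubastatin A-HCl, an inhibitor of the deacetylase HDAC6. The labels give all 8 libraries of that cohort the genotype of a global HDAC6 knockout, whereas the study's design text mentions no knockout there and puts the mice at about 28 weeks, a conflict that was not resolved. In the second cohort, labelled 28 weeks of age and vehicle-treated throughout, AdKO mice lacked HDAC6 specifically in adipose tissue and AdCre mice were the adiponectin-Cre controls. The adiponectin promoter is active in adipocytes, and the other cells of the fat pad keep the gene. Nothing in the labels ties every library to its own animal, and the p-values therefore reflect differences among libraries, which may be partly technical.

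SREBP proteins are made as membrane-bound precursors in the endoplasmic reticulum, where SCAP binds them. When sterols are plentiful, INSIG proteins hold SCAP and its cargo there. When sterols run low, SCAP carries SREBP to the Golgi, the proteases MBTPS1 and MBTPS2 release the active factor, and it switches on genes of cholesterol synthesis and uptake, mainly through SREBP2, and of fatty acid synthesis, mainly through SREBP1c. Insig1 is itself an SREBP target, which closes a feedback loop, and Stard4 is another sterol-responsive target that encodes a soluble sterol carrier. LXR receptors, which dimerize with RXR and bind oxysterols, work on the other side of the balance. Their targets include Abca1 and Abcg1, which export cholesterol from the cell, Mylip, whose product marks lipoprotein receptors for degradation, and Srebf1. Adipocytes store a large pool of free cholesterol, and macrophages of obese fat take up lipid and express these exporters.

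Stretches of promoter from 4 genes carry the letters known for the 2 kinds of control, shown as the 250 bases before a RefSeq transcription start (GRCm38.p6). Promoter windows were found for 7 of the 9 genes, 12 windows in all, and for 15 of 20 cholesterol synthesis enzymes. The first is that of Insig1 (chr5:28071162-28071411, plus strand), with an E-box, CACGTG, in capitals at 101 to 96 bases before the start. The Insig1 stretch held no exact sterol regulatory element, and the E-box letters alone do not show sterol control. The second, from the synthesis enzyme Hmgcs1 (chr13:119690101-119690350, plus strand), shows a classical sterol regulatory element in capitals at 137 to 129 bases before the start. The others, from Abca1 (chr4:53159896-53160145, minus strand) and from the third window of Srebf1 (chr11:60210472-60210721, minus strand), show in capitals a DR4, the pair of half-sites spaced by a few bases that LXR and RXR bind, at 67 to 52 and at 182 to 167 bases before the start.
Insig1: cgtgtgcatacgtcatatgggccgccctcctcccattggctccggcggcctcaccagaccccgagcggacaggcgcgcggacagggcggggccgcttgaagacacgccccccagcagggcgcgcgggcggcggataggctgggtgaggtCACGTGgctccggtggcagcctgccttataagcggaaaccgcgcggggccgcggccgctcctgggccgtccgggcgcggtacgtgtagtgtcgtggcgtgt
Hmgcs1: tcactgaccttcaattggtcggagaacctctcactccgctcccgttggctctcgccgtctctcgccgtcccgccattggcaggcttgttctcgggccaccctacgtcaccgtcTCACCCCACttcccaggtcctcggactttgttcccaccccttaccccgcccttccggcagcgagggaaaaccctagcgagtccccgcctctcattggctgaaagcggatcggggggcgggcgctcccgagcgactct
Abca1: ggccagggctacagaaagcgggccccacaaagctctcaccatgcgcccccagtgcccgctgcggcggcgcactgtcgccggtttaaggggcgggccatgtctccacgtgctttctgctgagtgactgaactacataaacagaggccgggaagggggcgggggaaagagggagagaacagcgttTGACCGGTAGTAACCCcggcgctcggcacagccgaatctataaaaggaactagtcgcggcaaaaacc
Srebf1: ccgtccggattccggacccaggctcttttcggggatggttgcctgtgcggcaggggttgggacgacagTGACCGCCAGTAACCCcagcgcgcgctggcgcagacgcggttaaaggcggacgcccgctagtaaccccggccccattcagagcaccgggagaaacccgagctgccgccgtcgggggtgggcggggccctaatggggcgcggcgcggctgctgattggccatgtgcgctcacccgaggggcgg

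The letters were searched on both strands. A gene is counted if any of its windows, up to 3, holds the letters. Counts of genes are therefore not the same measure as shares of single windows. The exact sterol regulatory element TCACNCCAC was in none of the 7 genes' windows and in 1 of the 15 enzymes (Hmgcs1), against 1.05% of 32851 windows of the same length. With 1 mismatch allowed it was in 4 of the 7 genes (Insig1, Insig2, Mylip and Srebf2), in 7 of the 15 enzymes and in 20.7% of all windows. The E-box was in Abca1, Insig1 and Scap, in 3 of the 15 enzymes and in 6.02% of all windows. A DR4 was here a pair of AGGTCA half-sites 4 bases apart with up to 3 mismatches. It was in Abca1, Insig1, Insig2 and Srebf1, in 4 of the 15 enzymes, Hmgcs1 among them, and in 18.5% of all windows. In Insig1 it overlapped the E-box. The printed stretches hold the DR4 matches of Insig1 and Hmgcs1 and the E-box of Abca1 unmarked. The capitals therefore do not divide the printed genes by motif. Read on the opposite strand, the Abca1 site is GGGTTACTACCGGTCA and the Srebf1 site is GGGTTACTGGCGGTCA. The letters they share, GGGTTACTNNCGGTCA, were in 3 of the 32851 windows (0.00913%), those of Abca1, Srebf1 and the fatty acid synthase gene Fasn. Because the letters were read from Abca1 and Srebf1, those matches were fixed in advance, and only that of Fasn was not. These letter matches describe the windows and do not show binding.

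An intron of Srebf2 also encodes a microRNA, miR-33, known to repress Abca1 and, in mice, Abcg1. Its mature sequence (chr15:82198127-82198147, plus strand) is printed with the seed, bases 2 to 8, in capitals, above the stretches of the Abca1 and Abcg1 3′ untranslated regions that hold its seed match, CAATGCA, in capitals.
miR-33-5p: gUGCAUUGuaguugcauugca
Abca1 site: attCAATGCAATGCActtCAATGCAacg
Abcg1 site: acgCAATGCAacgCAATGCAgac
The Abca1 stretch, bases 132 to 159 of a 3156-base untranslated region on the minus strand of chromosome 4, holds all 3 seed matches of that region, the first sharing bases with its neighbour. The Abcg1 stretch, bases 714 to 736 of 3703 on the plus strand of chromosome 17, holds both of its 2. The mature microRNA was not measured in these libraries, and the annotation of its precursor stood at a mean of 0.078 FPKM.

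Levels are FPKM, fragments scaled by gene length and library depth. Library totals recovered from the FPKM steps were 19296390 to 24322232 reads, and the 9 genes had between 275 reads (Stard4, lowest library) and 12631 (Abcg1, highest library). Of the 9, only Abcg1 did not come out as whole reads in every library, so its counts are approximate. Hdac6 itself stood at 1.78, 1.41, 1.66 and 1.48 FPKM in vehicle, 1.70, 1.52, 1.44 and 1.59 in tubastatin, 4.15, 4.15, 4.74 and 3.64 in AdCre and 4.11, 2.66, 3.44 and 3.52 in AdKO (replicates 1 to 4). AdKO and AdCre therefore overlapped at the RNA level of the targeted gene, with a log2 difference of -0.23 ± 0.113 (SE) and a limma-trend adjusted p of 0.503. AdKO replicate 1, at 4.11 FPKM, lay within the controls' range. The libraries of the drug cohort all lay below those of the knockout cohort, and the labelled genotype, the age and the cohort cannot be told apart there. Markers of adipocytes were abundant in every library, at a summed 2843 to 6351 FPKM over 10 genes, and so were those of macrophages, at 2346 to 6170. In bulk tissue, fewer cells of a type and less RNA per cell cannot be told apart. AdCre replicates 2 and 3 carried transcripts of epididymal epithelium, Gpx5 at 5.97 FPKM in replicate 2 and Epcam at 22.8 in replicate 3, so results of the knockout comparison were also computed without them.

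In the knockout cohort, Insig1 showed the widest gap of the 9 genes, at a mean of 63.7 ± 35.5 FPKM (SD, n = 4) in AdKO against 105.3 ± 20.1 in AdCre, and the exporters Abca1 and Abcg1 leaned the other way, at 40.7 ± 10.2 against 31.4 ± 2.14 and at 49.1 ± 15.6 against 38.1 ± 9.33. Srebf1, Srebf2, Scap, Insig2 and Stard4 had lower means in AdKO and Mylip a higher one. No gene of the 9 passed the adjusted threshold, with limma-trend adjusted p of 0.444 to 0.62. With tubastatin, the 9 genes stayed within 15.7% of vehicle in either direction on the log2(FPKM + 1) scale, and adjusted p were 0.59 to 0.978. Across the whole table limma-trend called 0 of 13271 genes (0%) at an adjusted p under 0.05 in each comparison and for the difference between them. Limma voom on recovered reads also called 0.

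Background shares place these counts. At an unadjusted p under 0.05, limma-trend picked 1597 genes (12%) for tubastatin and 0 of the 9. It picked 1452 genes (10.9%) for the knockout and 1 of the 9, Insig1. For the difference between the knockout and drug effects it picked 1198 genes (9.03%) and 1 of the 9, Mylip. The groups did not overlap for 7.15% of all genes with tubastatin and 6.48% with the knockout, against 0 of the 9 in both. Log2 differences were negative for 6 of the 9 in each cohort and for 6 of the 9 in the difference of the effects, where 54.6% (tubastatin), 49.1% (knockout) and 49.4% (difference) of all genes were negative.

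**Figure D1:**
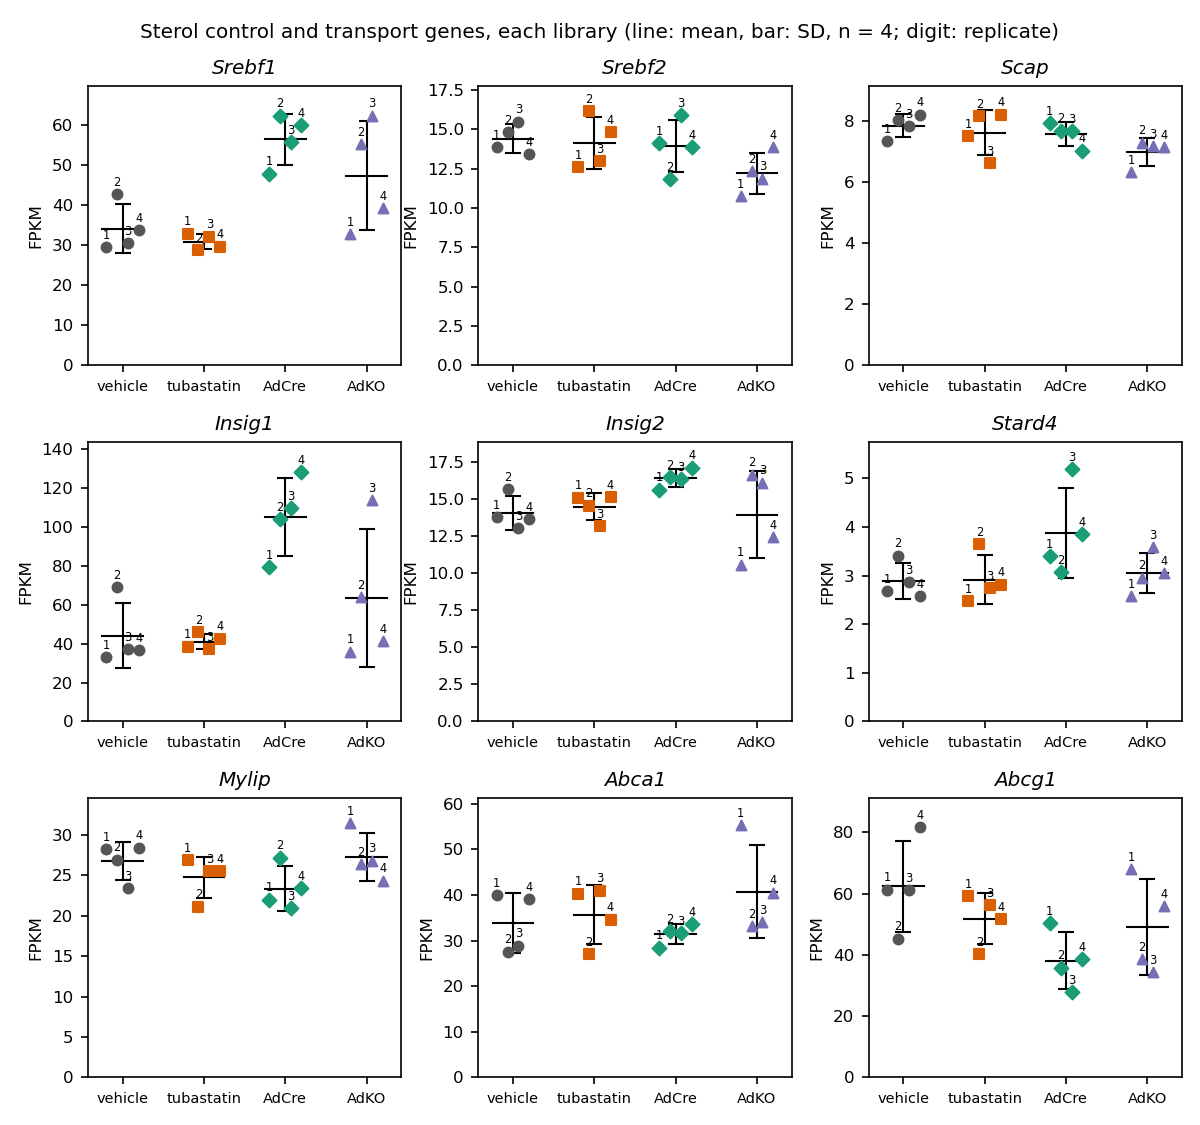
FPKM of each of the 9 genes (y axis, from 0) in every library by group (x axis), with the mean as a line and the SD as a bar (n = 4). Insig1 spans 35.8 to 113.7 FPKM in AdKO, where replicates 1 and 4 are low for Insig1, Srebf1 and Insig2 and high for Abca1 and Abcg1, while no gene separates a treated group from its own controls.

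Srebf1 (ENSMUSG00000020538, chromosome 11, 60199089 to 60222581, minus strand in GRCm38) encodes both SREBP1 forms, which the gene-level table does not tell apart. It measured 29.5, 42.8, 30.5 and 33.8 FPKM in the 4 vehicle libraries and 32.9, 28.8, 32.1 and 29.7 in tubastatin. It measured 47.8, 62.3, 55.6 and 60.0 in AdCre and 32.8, 55.2, 62.3 and 39.2 in AdKO. AdKO replicates 1 and 4 lay below every control, replicate 2 lay within the control range and replicate 3 matched the highest control, so the groups overlapped. The log2 difference was -0.29 ± 0.200 (SE; 95% interval -0.74 to 0.17) for the knockout and -0.13 ± 0.114 (-0.39 to 0.14) for tubastatin. Without AdKO replicates 1 and 4, a choice made after seeing the data, the knockout value was 0.06. The gene shares 109 exon bases with Rai1 on the opposite strand, which averaged 4.70 FPKM.

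Srebf2 (ENSMUSG00000022463, chromosome 15, 82147181 to 82205379, plus strand), the main driver of cholesterol synthesis genes, measured 13.9, 14.8, 15.5 and 13.4 FPKM in vehicle and 12.6, 16.2, 13.0 and 14.8 in tubastatin. It measured 14.1, 11.8, 15.9 and 13.9 in AdCre and 10.8, 12.3, 11.9 and 13.9 in AdKO. AdKO replicate 1 lay below every control, and the other 3 lay within the control range. The difference was -0.18 ± 0.104 (-0.41 to 0.06) for the knockout and -0.03 ± 0.086 for tubastatin. Srebf1 transcripts exceeded Srebf2 per length in every library, by 1.78 to 2.89 times in the drug cohort and 2.83 to 5.26 times in the knockout cohort.

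Scap (ENSMUSG00000032485, chromosome 9, 110333288 to 110384950, plus strand), the escort of both factors, had group means of 6.98 to 7.85 FPKM, with little spread within groups. Its vehicle libraries ran from 7.34 to 8.21 and its tubastatin libraries from 6.61 to 8.20. AdCre libraries ran from 7.02 to 7.92 and AdKO libraries from 6.32 to 7.29. Treated and control ranges overlapped in both cohorts. The knockout difference of Scap was -0.10 ± 0.066 (-0.26 to 0.05) and the tubastatin difference -0.04 ± 0.072. Its exons overlap a transcript on the opposite strand that averaged 0.081 FPKM.

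Insig1 (ENSMUSG00000045294, chromosome 5, 28071363 to 28078662, plus strand), the inducible member of the retention pair, measured 79.4, 104, 109.9 and 128 FPKM in AdCre. It measured 35.8, 63.9, 113.7 and 41.3 in AdKO. Of the AdKO libraries, 3 lay below every control and replicate 3 lay among the controls. The limma-trend log2 difference was -0.85 ± 0.343 (SE; 95% interval -1.63 to -0.06), a value 44.3% lower on the FPKM + 1 scale, with an unadjusted p of 0.0382 and an adjusted p of 0.444. Leaving out any single library kept the difference between -1.17 and -0.62. Without AdKO replicates 1 and 4 it was -0.28, and without AdCre replicates 2 and 3 it was -0.80, both pairs chosen after seeing the data.

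In the drug cohort, Insig1 measured 33.1, 69.0, 37.3 and 36.8 FPKM in vehicle and 38.5, 45.8, 37.1 and 42.6 in tubastatin. Vehicle replicate 2 stood above all other libraries of that cohort, and the other 3 vehicle libraries lay around the lower end of the tubastatin range. The tubastatin difference was -0.04 ± 0.213 (-0.53 to 0.45). Without vehicle replicate 2 it was 0.19. The knockout effect minus the drug effect was -0.80 ± 0.430 (-1.72 to 0.12), with a limma-trend adjusted p of 0.606.

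Insig2 (ENSMUSG00000003721, chromosome 1, 121304353 to 121332589, minus strand), the other retention gene, varied less. AdCre libraries held it at 15.7, 16.5, 16.4 and 17.1 FPKM and AdKO libraries at 10.6, 16.7, 16.1 and 12.5. As with Srebf1, AdKO replicates 1 and 4 were below the controls and the other 2 were among them. The difference was -0.24 ± 0.135 (-0.55 to 0.07), and it was -0.001 without those 2 libraries. In the drug cohort it ran from 13.0 to 15.7 FPKM in vehicle and from 13.2 to 15.2 in tubastatin, a difference of 0.04 ± 0.070. Insig1 exceeded Insig2 per length by 5.07 to 7.47 times in AdCre and by 3.31 to 7.04 times in AdKO, with AdKO replicate 3 alone inside the control range. The ratio was 2.40 to 4.39 in vehicle and 2.55 to 3.14 in tubastatin.

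Stard4 (ENSMUSG00000024378), whose product carries sterol through the cytosol, was the least abundant of the 9. It measured 2.68, 3.41, 2.87 and 2.58 FPKM in vehicle and 2.48, 3.64, 2.74 and 2.81 in tubastatin. It measured 3.39, 3.07, 5.18 and 3.85 in AdCre and 2.58, 2.96, 3.58 and 3.06 in AdKO. AdCre replicate 3 was the highest library, and the groups of each cohort overlapped. The knockout difference was -0.26 ± 0.139 (-0.58 to 0.06) and the tubastatin difference 0.01 ± 0.105. At its lowest count of 275 reads the counting error was 6.0%, against a coefficient of variation of 12.8 to 24.0% within groups.

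Mylip (ENSMUSG00000038175, chromosome 13, 45389742 to 45412022, plus strand), the LXR-driven ligase that limits lipoprotein uptake, measured 28.3, 27.0, 23.4 and 28.4 FPKM in vehicle and 26.9, 21.1, 25.6 and 25.6 in tubastatin. It measured 21.98, 27.2, 20.9 and 23.4 in AdCre and 31.5, 26.4, 26.8 and 24.3 in AdKO. AdKO replicate 1 was the highest of all 16 libraries, and AdCre replicate 2 lay among the AdKO values. The knockout difference was 0.21 ± 0.106 (-0.03 to 0.46) and the tubastatin difference -0.11 ± 0.091 (-0.32 to 0.10). Their difference was 0.32 ± 0.142 (0.02 to 0.63), with a limma-trend unadjusted p of 0.0399 and an adjusted p of 0.530. At that unadjusted threshold, 4.57% of all genes were likewise higher.

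Abca1 (ENSMUSG00000015243, chromosome 4, 53030787 to 53159895, minus strand), which loads cholesterol onto lipid-poor apolipoprotein, measured 28.5, 32.0, 31.7 and 33.6 FPKM in AdCre and 55.3, 33.2, 34.0 and 40.5 in AdKO. AdKO replicates 1, 3 and 4 lay above every control and replicate 2 just under the highest. The difference was 0.34 ± 0.157 (-0.02 to 0.70; limma-trend unadjusted p = 0.0633, adjusted p = 0.482), and it was 0.10 without AdKO replicates 1 and 4. In the drug cohort Abca1 measured 39.9, 27.6, 28.9 and 39.0 FPKM in vehicle and 40.2, 27.0, 40.9 and 34.6 in tubastatin, ranges that nearly coincide. The tubastatin difference was 0.08 ± 0.168 (-0.31 to 0.46).

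Abcg1 (ENSMUSG00000024030, chromosome 17, 31057675 to 31117988, plus strand), which passes cholesterol to high-density lipoprotein, measured 50.3, 35.8, 27.8 and 38.6 FPKM in AdCre and 67.9, 38.5, 34.3 and 55.8 in AdKO. AdKO replicates 1 and 4 lay above all controls and the other 2 lay among them. The difference was 0.33 ± 0.248 (-0.23 to 0.90), and it was -0.04 without those 2 libraries and 0.10 without AdCre replicates 2 and 3. In the drug cohort it measured 61.2, 45.3, 61.1 and 81.7 FPKM in vehicle and 59.1, 40.2, 56.2 and 51.6 in tubastatin. Vehicle replicate 4 was the highest of all libraries, and the tubastatin difference was -0.25 ± 0.183 (-0.67 to 0.17). The knockout effect minus the drug effect was 0.58 ± 0.327 (-0.12 to 1.28).

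**Figure D2:**
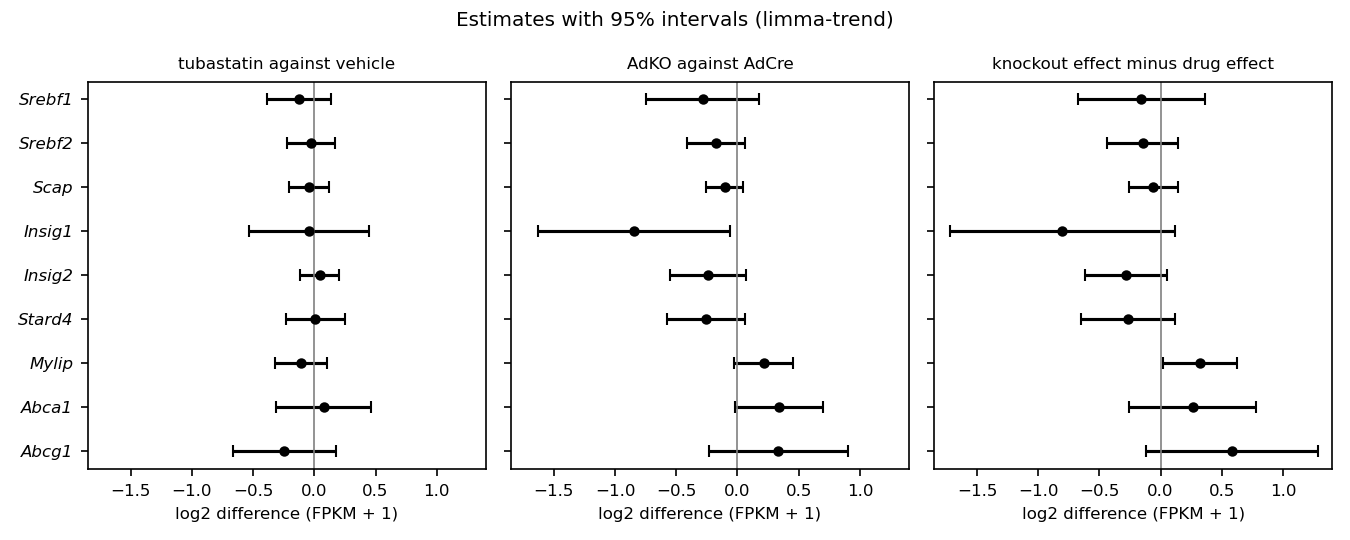
Limma-trend log2 differences on FPKM + 1 (x axis, points) with 95% intervals (bars) for the 9 genes (y axis) in the tubastatin comparison, the knockout comparison and the difference between them. The intervals that leave out 0 are those of Insig1 for the knockout (-1.63 to -0.06) and of Mylip for the difference (0.02 to 0.63), neither with an adjusted p under 0.05.

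Ordered by group mean, Insig1, Srebf1, Insig2 and Stard4 were highest in AdCre, Mylip and Abca1 in AdKO, and Srebf2, Scap and Abcg1 in vehicle. Neighbouring groups in these orders overlapped for every gene with 1 exception, Insig2, where all AdCre libraries lay above all tubastatin libraries. The AdCre libraries also lay above every vehicle library for Insig1 (79.4 to 128 against 33.1 to 69.0 FPKM) and for Srebf1 (47.8 to 62.3 against 29.5 to 42.8). The cohorts differ in labelled age and genotype, which cannot be told apart, and no test was made across them.

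Setting SREBP2 targets against LXR targets, the knockout cohort showed the 2 lists on opposite sides of 0. Of 20 cholesterol synthesis enzymes, 19 were tested and all 19 had negative log2 differences in AdKO, with a median of -0.61 beside 0.004 over all genes. At an unadjusted limma-trend p under 0.05, 16 of the 19 were lower, where 6.16% of all genes were, and in 10 every AdKO library lay below every control, where 3.7% of all genes did. The list was chosen with earlier results of these data known, so these shares describe it and do not test it. None of the 19 passed the adjusted threshold, the smallest limma-trend adjusted p being 0.191. Leaving out any single library kept the median between -0.79 and -0.48, and it was -0.50 without AdCre replicates 2 and 3 and -0.39 without AdKO replicates 1 and 4.

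Dhcr7, which catalyses the final reduction that yields cholesterol, measured 8.37, 8.67, 8.12 and 10.0 FPKM in AdCre and 4.69, 4.99, 6.21 and 4.33 in AdKO, with no overlap. Its difference was -0.70 ± 0.107 (SE), with a limma-trend adjusted p of 0.191, and the knockout effect minus the drug effect was -0.79 with an adjusted p of 0.0882. Cyp51, which removes a methyl group from lanosterol, ran from 10.1 to 14.6 FPKM in AdCre and from 5.88 to 9.53 in AdKO. Hmgcs1, the enzyme whose promoter is printed with the others, measured 50.5, 61.0, 78.7 and 86.3 FPKM in AdCre and 28.7, 46.0, 57.2 and 31.2 in AdKO, groups that overlapped, with a difference of -0.77 and an adjusted p of 0.369. The 2 SREBP2 targets among the 9 genes, Insig1 and Stard4, had the same sign as the enzymes, at -0.85 and -0.26.

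The LXR targets divided. Of 11 listed, 9 were tested (Abcg5 and Abcg8 were below the minimum), and 6 were positive and 3 negative in AdKO, with a median of 0.13. Abca1 and Abcg1 stood highest at 0.34 and 0.33, Mylip followed at 0.21 and the phospholipid transfer gene Pltp at 0.20. Srebf1 (-0.29), the phospholipid-remodelling gene Lpcat3 (-0.28) and Nr1h3, which encodes LXRα (-0.08), were negative. Lpcat3 was the only list member at an unadjusted limma-trend p under 0.05 (0.0151, adjusted p = 0.369), and its AdKO libraries, at 25.5 to 31.3 FPKM, lay just under the AdCre range of 31.6 to 38.5. The median was 0.03 without AdKO replicate 1 alone, 0.05 without AdCre replicates 2 and 3 and -0.03 without AdKO replicates 1 and 4.

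With tubastatin the 2 lists did not part. The median was -0.11 for the 19 enzymes, of which 15 were negative, and -0.11 for the 9 LXR targets, of which 5 were negative, beside -0.02 over all genes. Without vehicle replicate 2, the library high in Insig1, 9 of the 19 enzymes were negative and their median was 0.0003. No enzyme had an unadjusted p under 0.05. At that threshold 5.94% of all genes were higher and 6.1% lower. Among LXR targets, Arl4c, which encodes a small GTPase, stood at 0.38 (limma-trend unadjusted p = 0.0387, adjusted p = 0.397) and Nr1h3 at -0.21 (unadjusted p = 0.0145, adjusted p = 0.350). Nr1h3 measured 43.2, 45.6, 44.2 and 46.7 FPKM in vehicle and 38.6, 34.6, 41.0 and 41.3 in tubastatin, without overlap, where 3.62% of all genes were lower without overlap. The knockout effect minus the drug effect had a median of -0.53 over the enzymes, all 19 negative, and 0.16 over the LXR targets.

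**Figure D3:**
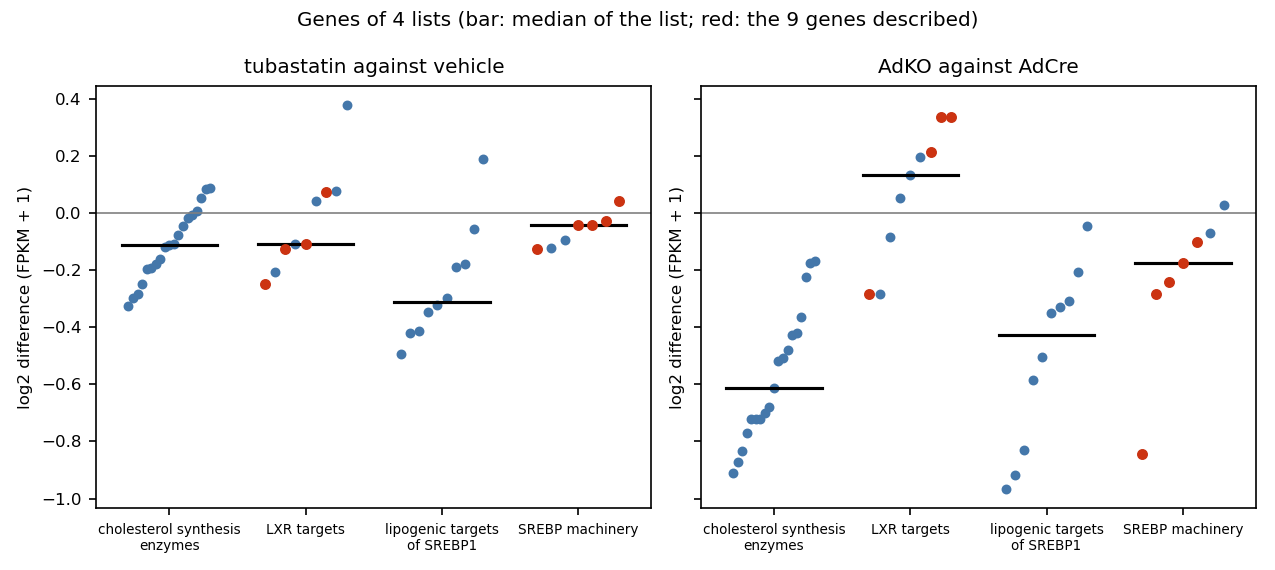
Log2 difference on FPKM + 1 (y axis) of each tested gene of 4 lists (x axis) for tubastatin against vehicle and for AdKO against AdCre, with the list median as a bar and the 9 genes described in red. In AdKO the synthesis enzymes lie below 0 (median -0.61) while Abca1, Abcg1 and Mylip lie above it, and with tubastatin both medians are -0.11.

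The level of the enzyme list minus that of the LXR list, each taken as the mean log2(FPKM + 1) after centring every gene, was 0.30, 0.37, 0.67 and 0.55 in AdCre and -0.62, 0.02, 0.29 and -0.36 in AdKO. All 4 AdKO libraries lay under the controls by this measure, replicate 3 only narrowly. It was -0.31, 0.34, -0.10 and -0.36 in vehicle and -0.36, 0.10, -0.46 and -0.06 in tubastatin, which overlapped. The ratio of Abca1 to Insig1 was 0.36, 0.31, 0.29 and 0.26 in AdCre against 1.54, 0.52, 0.30 and 0.98 in AdKO, where replicate 3 lay within the control range and the others above it.

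No gene in the other parts of the pathway passed the adjusted threshold. Of the 7 genes of SREBP processing, 6 were negative in each comparison, all but Insig2 with tubastatin and all but Mbtps1 in AdKO, and the proteases Mbtps1 and Mbtps2 stood at 0.03 and -0.07 in AdKO and at -0.12 and -0.10 with tubastatin. Among the 4 LXR and RXR receptor genes, Rxrb stood at 0.19 in AdKO (limma-trend adjusted p = 0.444) and Rxra at -0.22 with tubastatin (adjusted p = 0.413). All 10 lipogenic SREBP1 targets were negative in AdKO, with a median of -0.43 and no gene without overlap, and 9 of 10 were negative with tubastatin, with a median of -0.31. Fasn, which shares the DR4 letters, measured 138, 184, 167 and 241 FPKM in AdCre and 39.2, 126, 240.2 and 66.0 in AdKO. Its difference of -0.92 had a limma-trend adjusted p of 0.531, and AdKO replicate 3 stood just under the highest control.

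In the list of 10 genes of sterol uptake, storage and lysosomal exit, 4 were negative in AdKO and 9 with tubastatin. Npc2, which passes cholesterol out of the lysosome, stood at -0.30 in AdKO (limma-trend adjusted p = 0.425). The endocytic receptor gene Lrp1 and the endosomal sterol carrier gene Stard3 stood at -0.22 and -0.16 with tubastatin (adjusted p of 0.408 and 0.381). The remaining members had unadjusted p above 0.05 in both comparisons.

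Cell type markers moved with several of these genes and lists. With tubastatin, 10 of 10 adipocyte markers were negative (median -0.26), as were 7 of 7 tested T and NK cell markers (-0.56) and 5 of 5 B cell markers (-0.70), while 4 of 4 tested neutrophil markers were positive (0.93) and 7 of 10 macrophage markers were (0.09). Of 8 lipid-associated macrophage markers, 7 were negative with tubastatin and 1 was positive (median -0.35). The positive one, Spp1, stood at 2.59 (limma-trend adjusted p = 0.269) without overlap, where 7.15% of all genes did not overlap. The mean level of that list was 0.21 with tubastatin and 0.23 in vehicle. In AdKO, 9 of 10 adipocyte markers were negative (median -0.30), 10 of 10 macrophage markers were positive (median 0.37) and 6 of 6 mesothelial markers were positive (median 0.92). There, 3 of 4 tested neutrophil markers (median 1.14), 7 of 7 T and NK cell markers (0.50), 5 of 5 B cell markers (0.29) and 5 of 5 progenitor markers (0.21) were positive, and 6 of 6 endothelial markers were negative (-0.18). The lipid-associated macrophage markers divided in AdKO, with 5 positive and 3 negative (median 0.08). No marker passed the adjusted threshold in either comparison. The adipocyte list level was -0.26, 0.67, 0.69 and -0.50 in AdKO replicates 1 to 4, against 0.10, 0.64, 0.43 and 0.43 in AdCre. The macrophage level was 0.68, -0.34, -0.33 and 0.26 in AdKO against 0.07, -0.21, -0.70 and -0.29 in AdCre. AdKO replicates 1 and 4, the libraries low in Srebf1, Insig1 and Insig2 and high in Abca1 and Abcg1, were thus also the ones low in adipocyte and high in macrophage transcripts. AdKO replicate 2, with an adipocyte level above all controls, held Insig1 at 63.9 FPKM, below every control, and Dhcr7 at 4.99. AdKO replicate 3, with a higher adipocyte level still, held Insig1 at 113.7 FPKM, within the control range, and Dhcr7 at 6.21, below every control. The part of cell composition in the group differences was not tested.

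**Figure D4:**
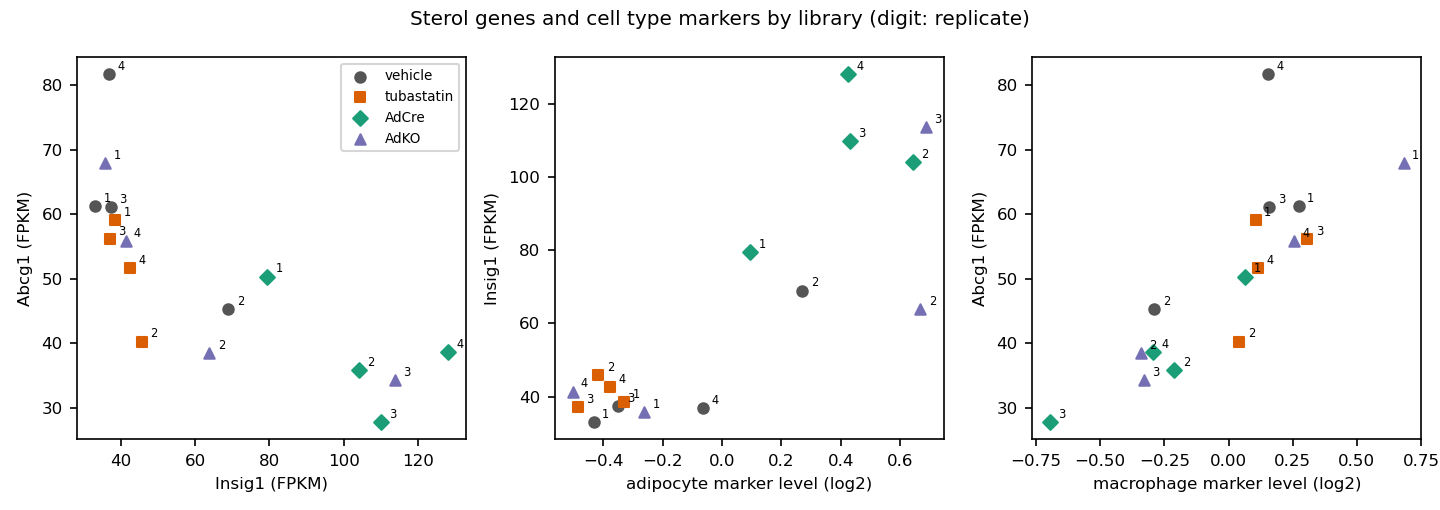
Each point is a library, marked by group and replicate number: Abcg1 against Insig1 (both FPKM), Insig1 (FPKM) against the adipocyte marker level, and Abcg1 (FPKM) against the macrophage marker level (marker levels are mean centred log2 values). Libraries rich in Insig1 tend to be poorer in Abcg1, though AdCre replicate 1 holds 79.4 FPKM of Insig1 and 50.3 of Abcg1. AdKO replicates 1 and 4 sit with the drug cohort at 35.8 and 41.3 FPKM of Insig1.

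After subtracting each group's mean, the 16 libraries gave the following correlations of log2(FPKM + 1), given as descriptions. All points share the authors' scaling, and libraries that differ in tissue composition differ in many genes at once. Srebf1 and Insig1 moved together across libraries (Pearson's r = 0.89), as did Insig1 and Insig2 (0.81), and Insig1 and Abcg1 moved oppositely (-0.81). Insig1 followed the lipogenic list (0.97), the synthesis list (0.95) and the adipocyte list (0.84), and Abcg1 followed the lipid-associated macrophage list (0.89) and the macrophage list (0.88). Of the tested genes, with predicted genes and clone names left out, those most like Insig1 were Aldh1a7 (0.99), Me1 (0.99) and Acss2 (0.97). Me1 and Acss2 are themselves on the lipogenic list. Those most like Srebf1 were Smpd1 (0.98), Ugt1a6b (0.97) and Zfp423 (0.96), and those most like Insig2 were Cd164 (0.97), Ptpn11 (0.97) and Ahcyl2 (0.96).

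Abcg1 was most like Hpgds, Vwa5a and Nceh1 (0.98 each), and Abca1 most like Kcne3 (0.91), Slc35a5 (0.91) and Zfp799 (0.90). Stard4 was most like Ddah1 (0.91), Dusp4 (0.87) and the squalene epoxidase gene Sqle (0.86), itself on the synthesis list. Scap had weaker likenesses, Upf3a (0.84), Gtpbp4 (0.81) and Habp4 (0.79). Srebf2 was most like Pdgfa (0.89) and Gnl3 (0.87), and unlike Srebf1 it did not follow the adipocyte list (-0.18), nor did it follow Srebf1 (-0.10). Mylip was most like Rmnd5a (0.92), Cebpg (0.86) and Asph (0.83).

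With predicted genes and clone names left out, the tested gene that ran most opposite to Mylip was Srebf2 (Pearson's r = -0.92, Spearman's rho = -0.90 over 16 libraries after subtracting group means). By the same search, the gene most opposite to Srebf2 was Asph (Pearson's r = -0.92), which is also among the genes most like Mylip. Each of the 9 genes had such an opposite, with Pearson's r from -0.97 (Srebf1) to -0.90 (Scap). The value for Mylip lay within that range and does not stand out. Srebf2 stood at -0.60 with Abca1 and -0.42 with Abcg1, the genes with the printed seed matches. Scap (-0.68), Insig2 (-0.63) and Insig1 (-0.61) ran at least as far opposite to Abca1. Insig1 (-0.81), Stard4 (-0.77), Insig2 (-0.72) and Srebf1 (-0.68) ran further opposite to Abcg1 than Srebf2 did, and Scap (-0.32) less far. In AdKO replicate 1, Srebf2 was the lowest of all libraries at 10.8 FPKM while Mylip (31.5) was the highest. In tubastatin replicate 2, Srebf2 was the highest at 16.2 FPKM and Mylip was next to lowest at 21.1. Correlations with the adipocyte list and the macrophage list were weakly positive for Mylip (0.14 and 0.34). They were weakly negative for Srebf2 (-0.18 and -0.37), and those of Insig1 and Abcg1 were stronger.

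**Figure D5:**
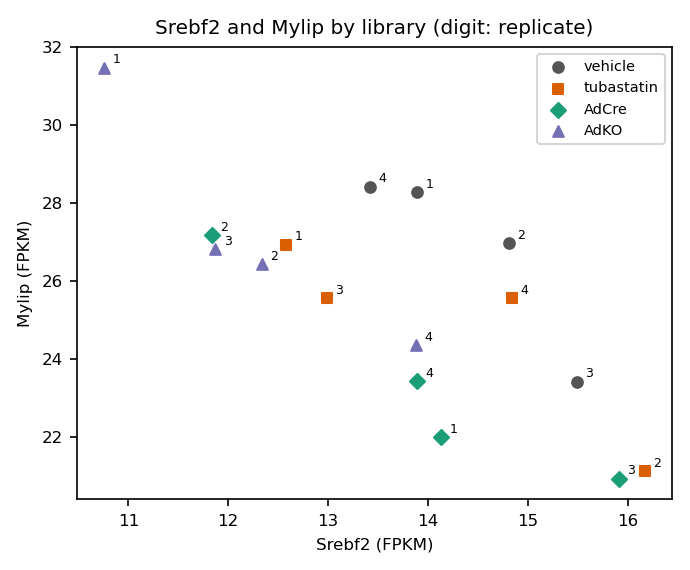
Mylip (y axis, FPKM) against Srebf2 (x axis, FPKM) in the 16 libraries, marked by group and replicate number; axes do not start at 0. Libraries run from AdKO replicate 1 (10.8 FPKM Srebf2, 31.5 FPKM Mylip) to tubastatin replicate 2 (16.2 and 21.1), with all 4 groups spread along the trend.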

How the data were processed

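FPKM values (fragments scaled by gene length and library depth) of 54532 Ensembl genes in 16 libraries of epididymal fat were deposited by the authors as 1 table, in which 0 columns had no sample. Per the labels' protocols, RNA was extracted with Trizol, treated with DNase and cleaned on columns. Not given in the sources used here were the aligner, counter, build, strand use and kit. Inguinal fat was not analysed here. Symbols (54409 IDs matched), lengths and coordinates come from GENCODE M21 (GRCm38), and sequences from RefSeq tables (GRCm38.p6) or GENCODE transcripts.

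With exon-union lengths, 96.3 to 96.5% of the values above 0 were whole reads to within 0.01 read, giving 19296390 to 24322232 reads per library. Median-of-ratios factors recomputed on the deposited FPKM were 1.0029 in every library, so the values already carry such a scaling and that alternative changed nothing. No 2 libraries of a group agreed within sampling noise (chi-square per gene 15.1 to 118.9).

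The 13271 genes averaging 1 FPKM or more entered limma-trend on log2(FPKM + 1), run with limma 3.58.1 in R 4.3.3, separately in the 8 libraries of each cohort and over all 16 for the difference of the effects, with Benjamini-Hochberg adjustment over all genes at 0.05. Differences are given on this log2(FPKM + 1) scale, where those of weakly expressed genes come out too small, and intervals are 95%. The scripts were tested on simulated data. The 9 genes and the lists were chosen with earlier results of these data known. The genes named are the 9, Hdac6, up to 5 per list and comparison by smallest p, and for each of the 9 up to 3 most alike by correlation. Predicted genes and clone names were left out of the search by correlation. Pltp, Hmgcs1, Spp1, the proteases and the negative and opposite genes were chosen with their values known.

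The alternatives were a pseudocount of 0.1, no filter, median-of-ratios factors, a single spread for both cohorts, a block for the replicate number, limma voom on recovered reads, and each library left out. Chosen after seeing the data were scaling by the total of recovered reads, and AdCre replicates 2 and 3 or AdKO replicates 1 and 4 left out together.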

Additional observations from a re-analysis of the deposited data

Results flagged for a closer look

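In AdKO, Scap stood at 6.32 FPKM in replicate 1, apart from the other 3 libraries of its group, which ran from 7.14 to 7.29. In vehicle, Insig1 stood at 69.0 FPKM in replicate 2, apart from the other 3 at 33.1 to 37.3. Both gaps exceeded Dixon's 95% critical value for 4 libraries, which chance alone exceeds in about 1 of 20 groups. In all, 36 sets of a gene and a group were examined, so 2 such sets are about what that rate gives. Vehicle replicate 2 also had the highest adipocyte marker level of the drug cohort, 0.27, and AdKO replicate 1 the highest macrophage marker level of all libraries, 0.68. The part of these levels in the 2 values was not tested.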

How the results depend on the processing

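Of 504 values of the 9 genes under the alternatives, 488 kept their sign and 16 did not, and no adjusted p was under 0.05 (smallest 0.173). Sign changes with a library left out were in the tubastatin comparison, where ranges were -0.076 to 0.071 for Stard4, -0.16 to 0.19 for Insig1, -0.014 to 0.20 for Abca1, -0.091 to 0.022 for Srebf2 and -0.074 to 0.017 for Scap. Scaling by total reads gave 0.018 for Srebf2, 0.0027 for Scap and 0.0054 for Insig1 there. Without AdKO replicates 1 and 4, the knockout values were 0.061 for Srebf1 and -0.038 for Abcg1, the LXR target median was -0.027, and the difference of the effects was 0.19 for Srebf1 and -0.20 for the synthesis median. With a library left out, the LXR median of the knockout comparison ranged from 0.028 to 0.23. The cause of these changes was not tested.

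Genes called numbered 0 in each comparison. For tubastatin they were 3 with no filter, 8 with 1 shared spread, 1 with total-read scaling and 0 to 2 with a library left out. For the knockout they were 2, 43, 0 and 0 to 1 in that order. For the difference of the effects they were 1 with no filter and 0 to 5 with a library left out (4 without tubastatin replicate 1, 5 without AdKO replicate 2).

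With the replicate number as a block, 0 genes were called in each comparison, and 3 of the 9 genes (Insig1, Stard4 and Abcg1) had an unadjusted p under 0.05 for the knockout, as did 1564 of 13271 genes. Deviations of same-numbered libraries from their group means correlated at r of -0.104 to 0.018 in the drug cohort and -0.232 to 0.33 in the knockout cohort. Of the 8 libraries of each cohort, 0 in the drug cohort and 4 in the knockout cohort matched best with their own number. Whether the numbers pair the samples cannot be decided from these values. Counting error of the 9 genes was at most 6.0% at the lowest count.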
